A study of Mus musculus with 61 samples.

Results

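The genes described here encode 8 peptide hormones best known from the endocrine cells of the gut: Cck, Gip, Sct, Pyy, Ppy, Nts, Tac1 and Gast. They were chosen by symbol, as gut hormone genes that the transcription factor Neurog3 (called Ngn3) can switch on in intestine, together with the pancreatic polypeptide gene Ppy, and they are 8 of the 46078 genes in the count table. The cells were ductal organoids, 3-dimensional cultures grown from pancreatic ducts of C57BL/6 mice. All the cultures were infected with doxycycline-inducible lentiviruses and induced for 8 days. One virus carried GFP with Ngn3, either the wild-type form (WT) or 6SA, a form in which 6 serines are replaced by alanine so that they cannot be phosphorylated. Another carried LSSOrange with Pdx1 and another tdTomato with MafA, and a further vector supplied the doxycycline-dependent transactivator. Sorting by fluorescence gave 12 conditions: Pdx1, MafA and Pdx1-MafA cells without the GFP-Ngn3 reporter, and Ngn3-Pdx1, Ngn3-MafA and Ngn3-Pdx1-MafA cells, each from WT and from 6SA cultures.

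Each library held RNA from a pool of 50 sorted cells, and most replicates were sequenced from several such pools. Replicates 1 and 2 came from organoids at passage 2 and replicate 3 from passage 5, so replicate 3 and passage cannot be told apart. After quality criteria on the libraries, 58 of 61 were kept, and pools of one replicate were summed to 32 samples, 17 of them Ngn3-positive and 15 Ngn3-negative. The Pdx1 conditions and the WT MafA condition had replicates 1 and 2, and the 6SA Ngn3-Pdx1-MafA condition lost replicate 3, so groups held 2 or 3 samples. Ngn3-negative cells came from cultures that also received the Ngn3 virus and were told apart by their colour, and vector transcripts of Ngn3, Pdx1 and MafA cannot be separated from those of the endogenous genes. Cells with Ngn3 alone and cells without any vector were not analysed here. The labels do not say whether replicates came from separate mice, so p-values measure the spread between these samples, which may be partly technical.

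Enteroendocrine cells arise from progenitors of the gut epithelium that pass through a phase of Neurog3 expression, and islet cells of the pancreas pass through the same phase. In the gut, K cells secrete GIP, I cells CCK, S cells secretin, L cells PYY, N cells neurotensin, G cells gastrin and a further group tachykinins, although single cells often make several of these. In the adult pancreas Ppy marks the PP cell of the islet, and Pyy is expressed in islet cells as well as in the gut. The hormone precursors are cut by prohormone convertases and stored in dense-core granules that other genes of the endocrine programme build.

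In the GRCm38 build Gip (ENSMUSG00000014351) lies at chr11:96024545-96030831 on the plus strand, and Gast (ENSMUSG00000017165) at chr11:100334407-100336996 on the same strand. Pyy (ENSMUSG00000017311, chr11:102106676-102107832) and Ppy (ENSMUSG00000017316, chr11:102099930-102101319), which encode related peptides, are neighbours on the minus strand with 5356 bases and no other gene between them. Cck (ENSMUSG00000032532) is at chr9:121489824-121495694, Sct (ENSMUSG00000038580) at chr7:141278330-141279133 and Nts (ENSMUSG00000019890) at chr10:102481756-102490486, each on the minus strand, and Tac1 (ENSMUSG00000061762) at chr6:7554879-7565834 on the plus strand. No exon of the 8 overlaps an exon of another annotated gene, so their reads were not shared with a neighbour.

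The 250 bases upstream of Gip, Pyy and Cck, the most abundant of the 8 transcripts in Ngn3-positive cells, are given below from RefSeq for GRCm38, 5′ to 3′ on the strand of the gene. Capitals mark CANNTG, the E-box core that basic helix-loop-helix factors such as Neurog3 recognise, and TAAT or ATTA, the core of many homeodomain sites such as those of Pdx1; a TAAT and a CAGCTG adjoin in Gip.
Gip, chr11:96024295-96024544, plus strand: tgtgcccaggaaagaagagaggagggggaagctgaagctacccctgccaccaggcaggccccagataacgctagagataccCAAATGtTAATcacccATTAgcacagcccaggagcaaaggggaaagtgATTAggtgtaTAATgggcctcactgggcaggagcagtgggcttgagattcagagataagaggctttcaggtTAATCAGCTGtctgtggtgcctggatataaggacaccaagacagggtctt
Pyy, chr11:102107833-102108082, minus strand: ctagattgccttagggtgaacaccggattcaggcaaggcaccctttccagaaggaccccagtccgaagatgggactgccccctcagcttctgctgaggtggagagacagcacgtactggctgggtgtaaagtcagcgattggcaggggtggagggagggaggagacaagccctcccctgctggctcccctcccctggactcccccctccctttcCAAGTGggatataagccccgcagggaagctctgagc
Cck, chr9:121495695-121495944, minus strand: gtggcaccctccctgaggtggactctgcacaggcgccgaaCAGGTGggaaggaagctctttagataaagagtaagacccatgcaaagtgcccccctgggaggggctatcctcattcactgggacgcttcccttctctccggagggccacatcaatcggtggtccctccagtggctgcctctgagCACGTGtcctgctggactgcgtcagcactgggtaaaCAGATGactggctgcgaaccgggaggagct
The Gip sequence held 2 CANNTG and 5 TAAT or ATTA matches. The Pyy sequence held 1 CANNTG match and no TAAT or ATTA. The Cck sequence held 3 CANNTG matches, 1 of them CAGATG, no TAAT or ATTA, and 1 GTCAGCA, the reverse complement of the TGCTGAC core of Maf sites. Over windows that also take in 50 bases past the start, 72.3% of 32851 mouse promoters held CANNTG on either strand, 17.2% CATCTG or CAGATG (which are among the CANNTG), 58.0% TAAT or ATTA, and 4.67% TGCTGAC or GTCAGCA. In the same windows Ppy had no CANNTG, no TAAT or ATTA and 1 TGCTGAC, and Sct had 4 CANNTG. These are letter matches in a short window and carry no measurement of binding.

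The reads carried the labels' Ngn3 status. Neurog3 ranged from 7.87 to 329 CPM (counts scaled to a total of 1000000 gene counts and for library composition) in the 17 Ngn3-positive samples, with a median of 62.6, and from 0 to 0.788 in the 15 Ngn3-negative samples. Mafa was at 0 to 0.12 CPM in the Ngn3-Pdx1 samples and at 0.31 to 12.7 CPM in the Ngn3-positive samples sorted for MafA. The 0.31 CPM, in 6SA Ngn3-MafA replicate 3, came from 2 counts, under the detection floor of 3 counts used here. Of the 11 Ngn3-negative samples sorted for MafA, 3 had at most 1 Mafa count, so Mafa RNA did not bear out their label. These were WT MafA replicate 1, WT Pdx1-MafA replicate 2 and 6SA Pdx1-MafA replicate 3. The main fits of what Ngn3 adds to the 8 genes are given with and without them. Other results that rest on them, among them those for gene lists and markers, are given only with them. Pdx1 was less separate, with 11.2 to 37.7 CPM in the Pdx1 samples and 4.22 to 19.3 CPM in the MafA samples. Its ranges also overlapped between Ngn3-Pdx1, at 9.84 to 48.4 CPM, and Ngn3-MafA, at 3.21 to 30.6 CPM. It reached 30.8 to 191 CPM in Ngn3-Pdx1-MafA. Samples held 2579583 to 19461008 gene counts, and 3 counts, the floor used here for detection, corresponded to 0.136 to 1.01 CPM.

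Gip, which encodes the incretin glucose-dependent insulinotropic polypeptide, was close to absent without Ngn3 and reached its highest levels where Ngn3 was joined by Pdx1. In the 15 Ngn3-negative samples its lowest level was 0, its median 0.145 and its highest 0.559 CPM, from 0 to 8 counts a sample. In WT Ngn3-Pdx1 it stood at 132, 2.70 and 0.492 CPM in replicates 1 to 3, the last from 3 counts and within the Ngn3-negative range, whereas in 6SA Ngn3-Pdx1 it was 81.3, 88.0 and 86.1 CPM. The highest values belonged to Ngn3-Pdx1-MafA, with 1163, 1219 and 94.8 CPM in WT replicates 1 to 3 and 1019 and 28.9 CPM in 6SA replicates 1 and 2. Every Ngn3-Pdx1-MafA sample was above every Ngn3-negative sample. With Ngn3-MafA the picture was different. One WT sample, replicate 1, reached 49.9 CPM, and the others had no count. The 6SA Ngn3-MafA samples had 0.489, 0 and 0.153 CPM, within the range of Ngn3-negative cells. In pools of sorted cells, a lower level may come from fewer expressing cells or from less RNA in each, and these cannot be told apart.

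**Figure D1:**
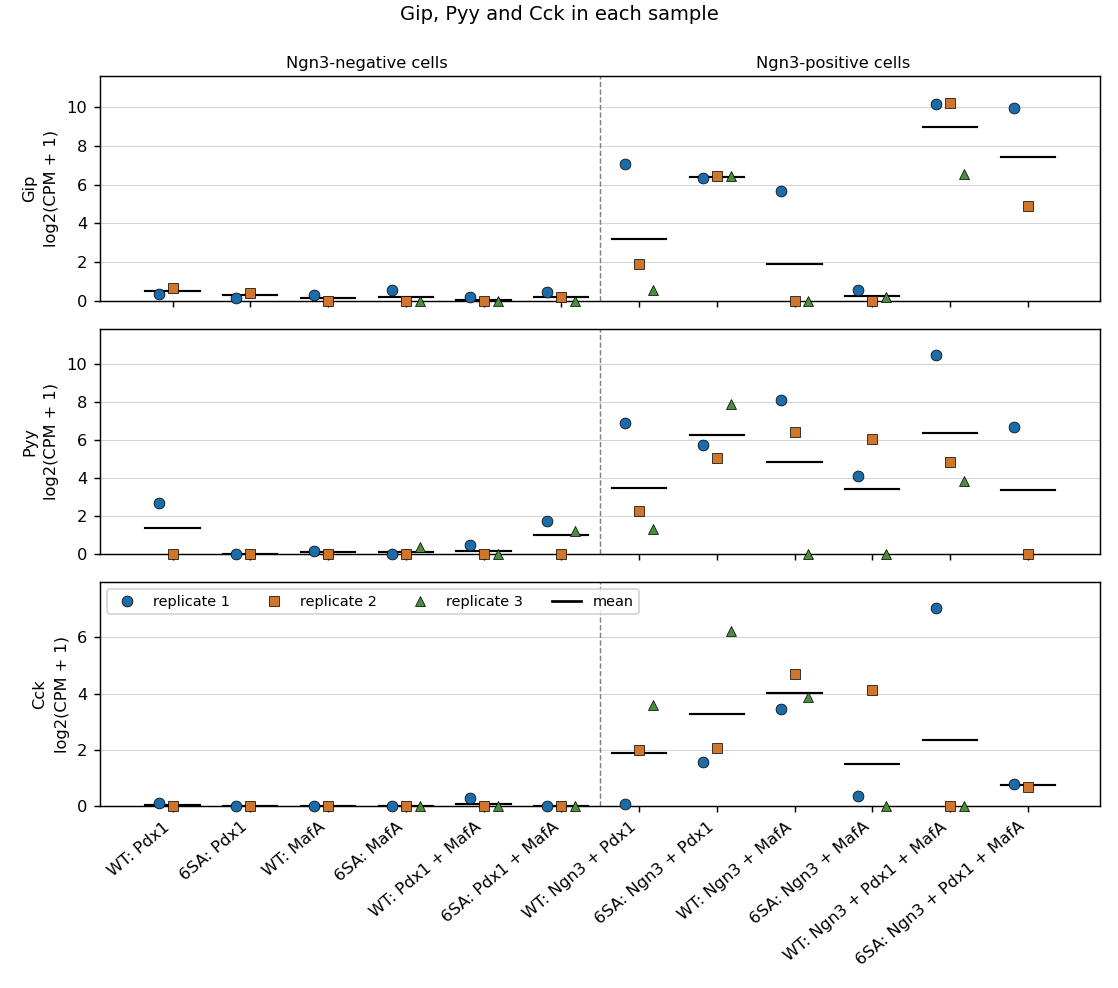
Gip, Pyy and Cck in each of the 32 samples, as log2(CPM + 1), by condition; points are samples, with shape and colour giving the replicate, and bars are means of the log2 values. Ngn3-negative samples lie near 0, Gip is highest in Ngn3-Pdx1-MafA and near 0 in 5 of 6 Ngn3-MafA samples, and Pyy and Cck appear in each Ngn3-positive combination with a wide spread.

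Pyy, the gene of the satiety peptide YY, was found with both partner factors. WT Ngn3-Pdx1 had 117, 3.71 and 1.48 CPM in replicates 1 to 3, and 6SA Ngn3-Pdx1 had 52.7, 31.7 and 241 CPM. With MafA as the partner it reached 272, 82.9 and 0 CPM in WT and 16.2, 65.8 and 0 CPM in 6SA cultures. Replicate 3 of Ngn3-MafA thus had no Pyy count in either culture, while replicates 1 and 2 had 265 to 3368 counts. WT Ngn3-Pdx1-MafA had 1406, 27.5 and 13.4 CPM, and 6SA Ngn3-Pdx1-MafA had 101 and 0 CPM. The first of these samples held the highest Pyy level of the series. Among Ngn3-negative samples 9 of 15 had no count, and the highest were WT Pdx1 replicate 1 at 5.41 CPM from 60 counts and 6SA Pdx1-MafA replicate 1 at 2.30 CPM from 39 counts, so 5 of the 17 Ngn3-positive samples did not exceed the highest Ngn3-negative one.

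Cck encodes cholecystokinin, which releases bile and pancreatic enzymes. The 15 Ngn3-negative samples together held 4 counts of it. WT Ngn3-Pdx1 had 0.0693, 3.04 and 11.2 CPM and 6SA Ngn3-Pdx1 had 1.95, 3.26 and 73.8 CPM. WT Ngn3-MafA had 9.92, 24.8 and 13.8 CPM, all above the Ngn3-negative samples, while 6SA Ngn3-MafA had 0.305, 16.4 and 0 CPM. In WT Ngn3-Pdx1-MafA replicate 1 held 130 CPM from 1600 counts and replicates 2 and 3 had no count. The 6SA Ngn3-Pdx1-MafA samples had 0.746 and 0.608 CPM. Cck was therefore not highest in the samples where Gip was highest, other than WT Ngn3-Pdx1-MafA replicate 1.

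The other 5 genes were low and sporadic. Gast, the gastrin gene, had no count in any Ngn3-negative sample and 120 counts over the Ngn3-positive samples. It was highest in 6SA Ngn3-Pdx1, at 1.04, 5.35 and 0.159 CPM, and in WT Ngn3-Pdx1-MafA replicate 1, at 2.03 CPM from 25 counts. WT Ngn3-Pdx1 and 6SA Ngn3-MafA had no Gast count. Ppy, whose product pancreatic polypeptide restrains pancreatic secretion, had 178 counts over the Ngn3-positive and 2 over the Ngn3-negative samples. Its largest values were 11.2 CPM in 6SA Ngn3-MafA replicate 2, 3.98 CPM in 6SA Ngn3-Pdx1 replicate 3, 1.66 CPM in WT Ngn3-Pdx1 replicate 1 and 1.22 CPM in WT Ngn3-Pdx1-MafA replicate 1. No other sample had over 3 Ppy counts.

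Sct, the gene of secretin, which drives bicarbonate secretion from ducts, passed 3 counts in 4 of 17 Ngn3-positive samples and in 1 of 15 Ngn3-negative ones. It was highest in replicate 1 of WT Ngn3-Pdx1-MafA, with 34 counts and 2.75 CPM, and of 6SA Ngn3-Pdx1-MafA, with 20 counts and 1.36 CPM. The Ngn3-negative sample was WT Pdx1 replicate 1 at 0.721 CPM from 8 counts, the same sample that held the highest Pyy among Ngn3-negative cells. Tac1, which encodes the tachykinins substance P and neurokinin A, had its highest value outside the Ngn3-positive cells. In 6SA Pdx1-MafA replicate 1 it reached 4.77 CPM, and its 81 counts there came from 1 of 3 libraries. WT Ngn3-Pdx1-MafA had 0, 1.90 and 1.33 CPM. Nts, the neurotensin gene, had 8 counts in 1 library of 6SA Ngn3-MafA replicate 1 and 3 counts in all Ngn3-negative samples, so no difference was detectable at this depth.

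**Figure D2:**
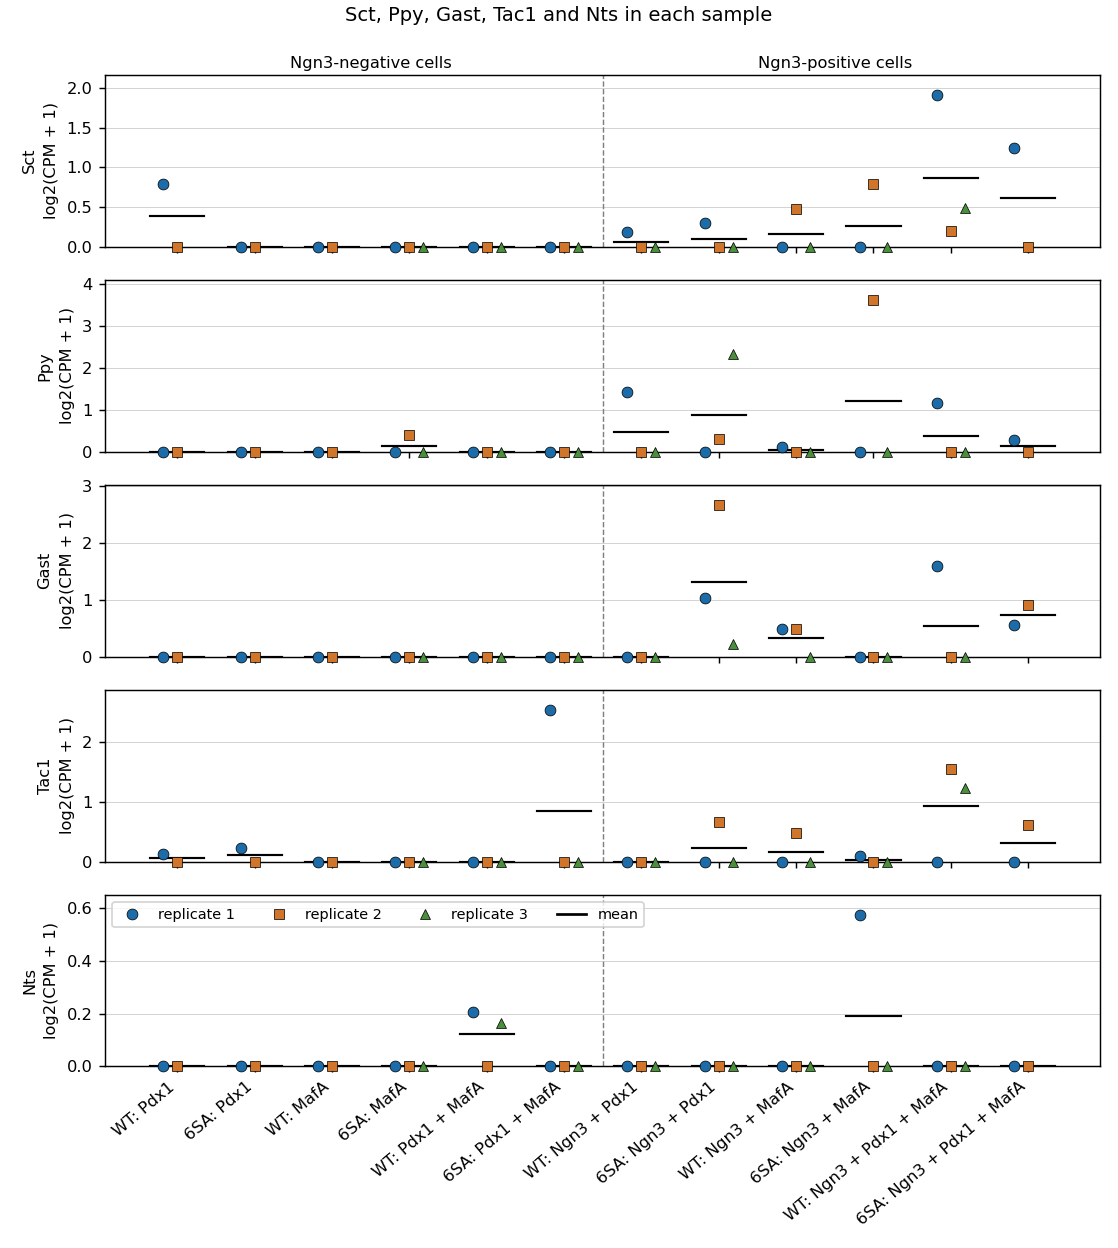
Sct, Ppy, Gast, Tac1 and Nts in each of the 32 samples, as log2(CPM + 1), by condition; points are samples, with shape and colour giving the replicate, and bars are means of the log2 values. Vertical scales differ between panels. Gast is at 0 in the 15 Ngn3-negative samples, and the highest Tac1 point is a 6SA Pdx1-MafA sample without Ngn3.

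Pools of 50 cells from one replicate often disagreed. Of the 29 Ngn3-positive libraries, Pyy passed 3 counts in 25, Gip in 20, Cck in 16, Gast in 6, Ppy in 5, Sct and Tac1 in 4 each and Nts in 1. Of the 29 Ngn3-negative libraries the numbers were 5 for Pyy, 2 for Gip, 1 each for Sct and Tac1 and 0 for Cck, Gast, Ppy and Nts. The 3 pools of WT Ngn3-Pdx1-MafA replicate 1 had 7554, 576 and 118 CPM of Pyy on library totals. For Cck the same pools had 22.1, 460 and 1.01 CPM, so the pool rich in Pyy was not the one rich in Cck. The 618 of 619 Gip counts of WT Ngn3-MafA replicate 1 came from 1 of its 2 pools, at 123 CPM. In 6SA Ngn3-MafA replicate 2, 157 of 158 Cck counts and 101 of 108 Ppy counts came from 1 pool. Among replicates with several pools and at least 100 counts of the gene, the highest pool exceeded the lowest more than 5-fold in 6 of 6 replicates for Gip, 3 of 3 for Cck, 1 of 1 for Ppy and 4 of 8 for Pyy. Over all genes under the same conditions the median ratio was 1.67, and 7.12% of 84142 gene-by-replicate values passed 5-fold.

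**Figure D3:**
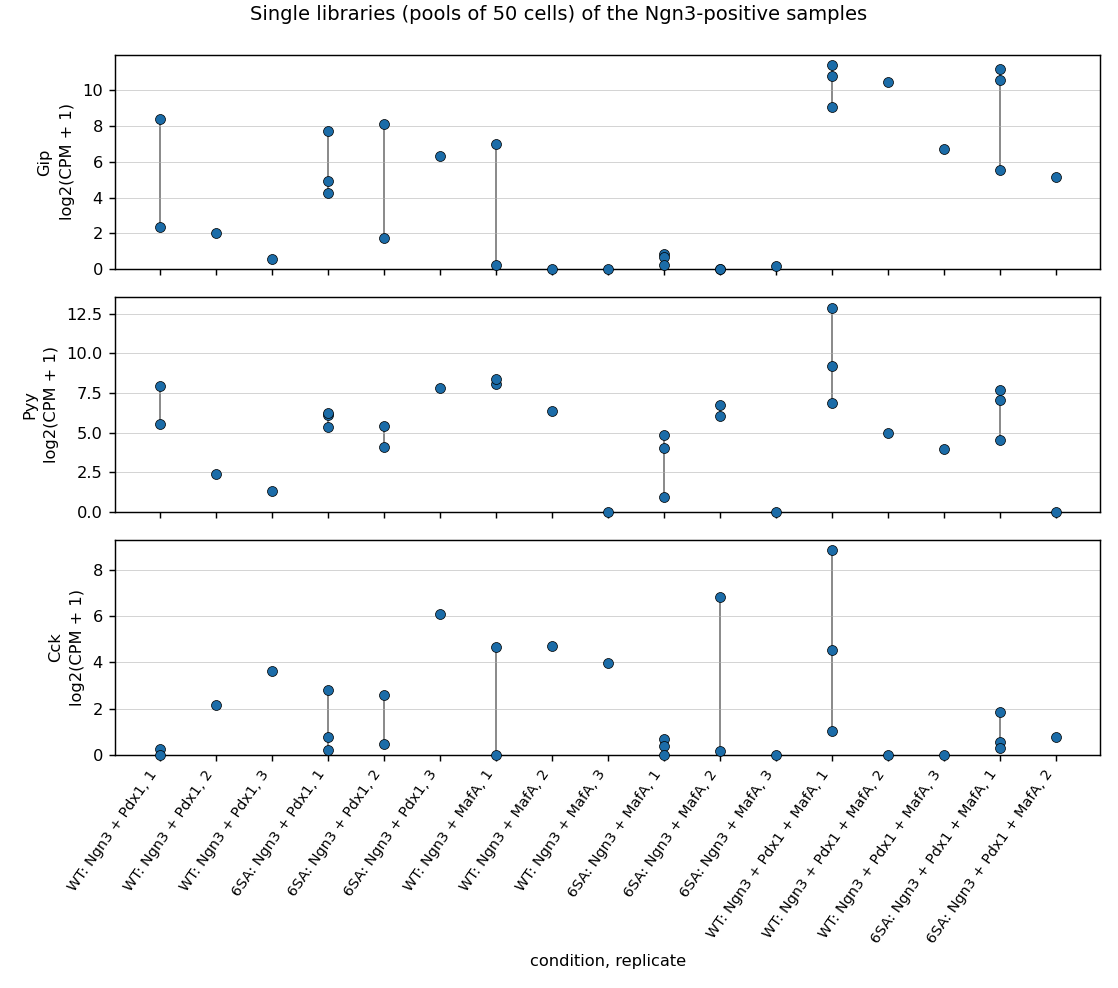
Gip, Pyy and Cck in the 29 single libraries of the 17 Ngn3-positive samples, as log2(CPM + 1) on library totals; points are libraries made from 50 cells, and a grey line joins the libraries of one sample. Gip in WT Ngn3-MafA replicate 1 and Cck in 6SA Ngn3-MafA replicate 2 each come from 1 of 2 pools, while Pyy of WT Ngn3-MafA replicate 1 is alike in both.

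Per kilobase of exon, a scale on which genes can be compared, Gip was the highest of the 8 in 8 of 17 Ngn3-positive samples, in 1 of them on a single count. Pyy was highest in 7 and Cck in 2. Gip led in all Ngn3-Pdx1-MafA samples other than WT replicate 1, where Pyy held 55.3% of the sum. Pyy led in replicates 1 and 2 of Ngn3-MafA in both cultures, with at least 74.3% of the sum. The 2 samples led by Cck, WT Ngn3-Pdx1 and WT Ngn3-MafA, were both replicate 3. Ngn3-positive samples held a median of 4 of the 8 genes above 3 counts, with a range from 0 to 6. The sample with none was 6SA Ngn3-MafA replicate 3, in which Neurog3 stood at 24.9 CPM and Mafa at 0.31 CPM from 2 counts. Of the Ngn3-negative samples 10 of 15 held none. Across the 17 Ngn3-positive samples the Spearman correlation was 0.46 between Gip and Pyy, 0.44 between Cck and Pyy and -0.27 between Cck and Gip, a description only, since the genes share library and depth.

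**Figure D4:**
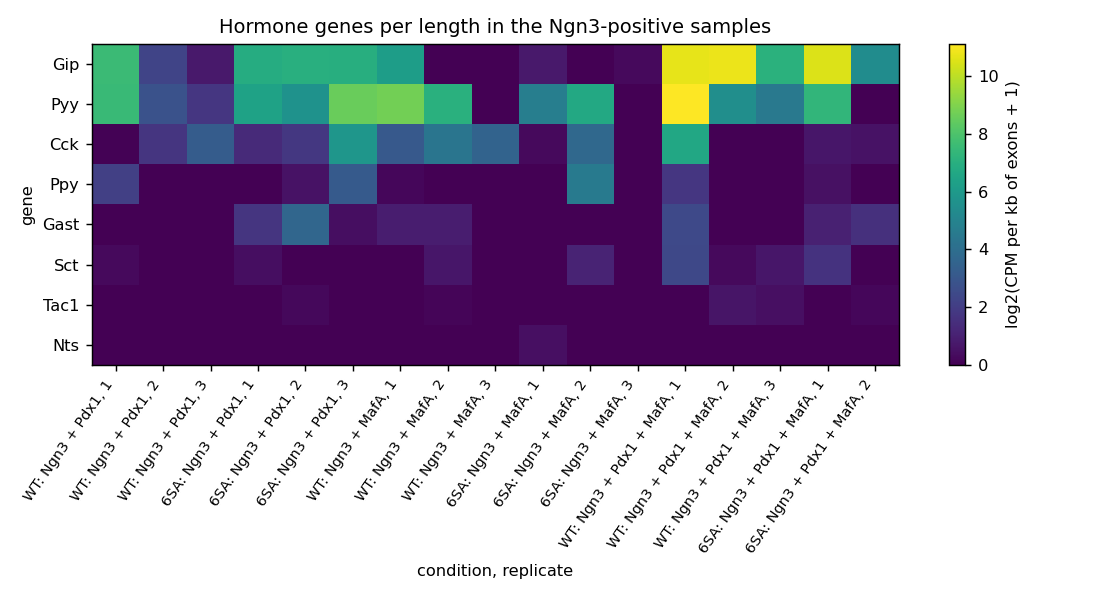
The 8 hormone genes in the 17 Ngn3-positive samples, as log2(CPM per kilobase of exon + 1); columns are samples by condition and replicate, and colour gives the level. Gip is bright in Ngn3-Pdx1-MafA and in 6SA Ngn3-Pdx1, Pyy in most samples, and Nts and Tac1 stay dark.

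The comparison of Ngn3-positive with Ngn3-negative cells, averaged over 6 pairs of conditions, asks what Ngn3 adds where Pdx1, MafA or both are present. Mean levels were 233 ± 433 CPM (SD, n = 17) against 0.174 ± 0.187 (n = 15) for Gip, 143 ± 335 against 0.650 ± 1.47 for Pyy, and 17.0 ± 34.1 against 0.021 ± 0.062 for Cck. By edgeR's quasi-likelihood test with Benjamini-Hochberg adjustment over 24004 genes, Gip rose by 7.79 ± 1.03 (log2 fold change ± SE, adjusted p = 2.1e-06), Pyy by 8.81 ± 1.34 (adjusted p = 1.8e-05) and Cck by 8.39 ± 1.45 (adjusted p = 0.00016). Sct rose by 3.43 ± 1.02 (adjusted p = 0.019) and Ppy by 4.59 ± 1.39 (adjusted p = 0.020). These 5 were the members called, of 7 that passed the filter on detection, against 21.5% of all genes in either direction, 11.1% higher and 10.5% lower. Of the 29 Ngn3-negative libraries, 27 had no count of Cck or Sct, 28 none of Ppy and 29 none of Gast. These genes passed the filter only through Ngn3-positive libraries, so the 5 of 7 is a description. Nts was too rarely detected to enter the test. For Tac1 the mean levels were 0.282 and 0.335 CPM.

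The average over pairs cannot call a gene that has no count in one of the Ngn3-positive conditions, as Gast does in WT Ngn3-Pdx1 and 6SA Ngn3-MafA and Tac1 in WT Ngn3-Pdx1, and 6120 of the tested genes have such a condition. In a fit chosen after seeing this, with a single Ngn3 coefficient for all pairs, 6 members were called, Gast among them with a log2 fold change of 5.21 ± 1.14 (adjusted p = 0.0037), and Tac1 was not called (adjusted p = 0.51). Over the whole group, Gast was at least 32.3-fold higher with Ngn3 than 3 counts in the Ngn3-negative samples would give. Without replicate 1, Gip, Pyy and Cck each had an Ngn3-positive condition with no count. The averaged comparison therefore could not call these 3, and it called none of the members. Without the 3 samples of little Mafa it called Gip, Pyy and Cck, while Sct (adjusted p = 0.055) and Ppy (adjusted p = 0.058) no longer passed. The single-coefficient fit without replicate 1 called 4, namely Gip, Pyy, Cck and Tac1 (adjusted p = 0.048 for Tac1), without replicate 2 it called Gip, Pyy and Cck, and without replicate 3 it called 6.

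Adding Ngn3 to Pdx1 raised Gip by 7.79 ± 1.73 on the log2 scale (adjusted p = 0.014), the single member called, with 1.49% of all genes called, 1.32% higher and 0.171% lower. Pyy at 8.41 ± 2.44 (adjusted p = 0.087) and Cck at 8.47 ± 2.54 (adjusted p = 0.11) had estimates as large but did not pass. Samples with the same replicate number deviated together in this comparison, and in a fit blocked by number Pyy passed as well, at 10.31 ± 2.30 (adjusted p = 0.0064). The Gip call was lost without replicate 1 (adjusted p = 0.30) and without replicate 2 (adjusted p = 0.41).

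With MafA as the partner, Ngn3 raised Pyy by 9.69 ± 2.51 (adjusted p = 0.022) and Cck by 9.53 ± 2.75 (adjusted p = 0.049), where 4.67% of all genes were called, 2.5% higher and 2.17% lower. Gip had a log2 fold change of 3.35 ± 1.79 (adjusted p = 0.38), and its mean of 8.43 ± 20.3 CPM (n = 6) rested on the one WT library. Cck was at least 127-fold higher in Ngn3-MafA than 3 counts over the MafA samples would give, as those had none. Both calls were lost without replicate 1, with an adjusted p of 0.18 for Pyy and 0.14 for Cck, and without replicate 2, with 0.40 and 0.62. Without the 3 samples of little Mafa, which leaves WT MafA with 1 sample that is assumed to vary like the others, the values were 11.16 ± 4.12 for Pyy and 9.61 ± 3.80 for Cck, and neither was called (adjusted p = 0.22 and 0.28).

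In cells with Pdx1 and MafA, Ngn3 raised 5 members, against 17.8% of all genes called, 9.42% higher and 8.4% lower. Gip rose most, by 12.25 ± 1.68 (adjusted p = 1.1e-05), from 0.108 ± 0.140 CPM (n = 6) to 705 ± 592 CPM (n = 5), and it was called in each of the 14 alternative fits. Pyy rose by 8.33 ± 1.84 (adjusted p = 0.0021), Cck by 7.18 ± 2.11 (adjusted p = 0.021), Sct by 6.11 ± 1.82 (adjusted p = 0.025) and Gast by 5.76 ± 1.72 (adjusted p = 0.031). Ppy, at 4.15 ± 2.07, did not pass (adjusted p = 0.18). Without replicate 1, Pyy had no count left in 6SA and Cck none in WT Ngn3-Pdx1-MafA. The averaged fit could therefore call neither, and its values of 2.53 each are no estimate of the change. Without replicate 2, Cck was not called. The Sct and Gast values rest on 58 and 42 counts over 5 samples. Without replicate 2 neither was called (adjusted p = 0.10 and 0.20), and Sct was not called without replicate 3 (adjusted p = 0.073). Without the 3 samples of little Mafa, Gip and Pyy were called, and Cck (adjusted p = 0.073), Sct (0.070) and Gast (0.080) were not.

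The partner factors were then compared within Ngn3-positive cells. Adding Pdx1 to Ngn3-MafA raised Gip by 8.28 ± 1.39 (adjusted p = 0.0018), from a mean of 8.43 to 705 CPM, and no other member was called, with 2.72% of all genes called, 1.17% higher and 1.56% lower. Pyy had a value of 1.46 ± 1.33 (adjusted p = 0.61) and Cck of -0.80 ± 1.44 (adjusted p = 0.87), intervals that leave room for differences of several fold either way. Pdx1 RNA itself was higher in Ngn3-Pdx1-MafA than in Ngn3-MafA, by 3.52 ± 0.56 (adjusted p = 0.00093). Without replicate 2 the Gip value was 8.03 and was not called (adjusted p = 0.19).

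Adding MafA to Ngn3-Pdx1 gave no call among the members, with 1.88% of all genes called, 0.525% higher and 1.35% lower. Gip went from 65.1 ± 52.5 (n = 6) to 705 ± 592 CPM (n = 5), a fitted difference of 3.40 ± 1.09 (adjusted p = 0.11), and 3 of the 5 samples with MafA exceeded the highest without it. Here too Pdx1 RNA was higher, by 2.16 ± 0.53 (adjusted p = 0.028), and its part in the Gip difference was not tested. With the libraries left out by the quality criteria put back, the Gip difference was 4.19 ± 1.11 and passed (adjusted p = 0.040).

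Ngn3-Pdx1 and Ngn3-MafA cells, each with 6 samples, differed in Gip by 4.88 ± 1.22 (adjusted p = 0.11), a value that did not pass where 0.133% of all genes did, 0.0875% higher and 0.0458% lower. Same-numbered samples deviated together between these conditions, and in the fit blocked by number the Gip difference was 6.32 ± 1.00 and passed (adjusted p = 0.00080). Pyy, at means of 74.6 and 72.8 CPM, had a difference of 0.23 ± 1.25 and Cck of 0.23 ± 1.33, each with an adjusted p of 1.0.

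**Figure D5:**
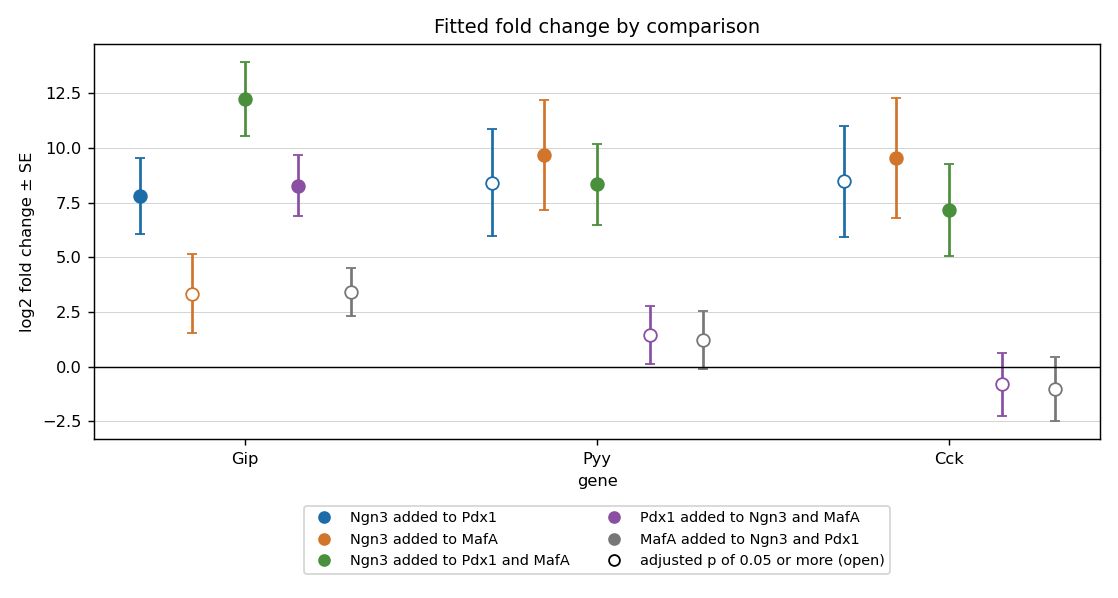
Fitted log2 fold changes of Gip, Pyy and Cck in 5 comparisons, with standard errors; filled points have an adjusted p under 0.05. Gip is raised by Ngn3 where Pdx1 is present and by Pdx1 where Ngn3 and MafA are present, and the Pyy and Cck values for adding Pdx1 or MafA to Ngn3 lie between -1.03 and 1.46.

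The phospho-mutant was compared with WT Ngn3 over the 3 Ngn3-positive combinations. No member was called, and neither was any of the 24004 genes (0% called) by edgeR, where 1421 genes had an unadjusted p under 0.05 and DESeq2 called 26 genes. Gip was at a mean of 163 ± 348 CPM (n = 8) with 6SA and 296 ± 510 CPM (n = 9) with WT, a fitted difference of -1.92 ± 0.94 (adjusted p = 0.85). For Pyy the means were 63.6 ± 79.5 and 214 ± 456 CPM and the difference -1.32 ± 1.10 (adjusted p = 0.98), and for Cck 12.1 ± 25.5 and 21.4 ± 41.4 CPM and -1.68 ± 1.18 (adjusted p = 0.94). None of these directions held in every fit. Without replicate 1 the difference was 1.16 ± 1.26 for Gip and 2.07 ± 1.34 for Cck, and with samples blocked by number it was 0.16 ± 0.85 for Pyy. In Ngn3-Pdx1 the Gip values were closer together with 6SA, 81.3 to 88.0 CPM, than with WT, 0.492 to 132 CPM, though the pools behind the 6SA samples ranged from 2.40 to 274 CPM. Whether the Ngn3 effect differed between both forms was tested as an interaction, with no call for any member or for any gene by edgeR (0% called), 647 genes at an unadjusted p under 0.05 and 5 called by DESeq2.

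Replicate 3, from passage 5, was the lowest for Gip in WT Ngn3-Pdx1 and WT Ngn3-Pdx1-MafA but not in 6SA Ngn3-Pdx1. Over the Ngn3-positive cells its 5 samples had a median of 0.492 CPM and the 12 samples of passage 2 a median of 65.6 CPM. For Pyy the medians were 1.48 and 59.3 CPM, and for Cck 11.2 and 2.49 CPM, so Cck stood the other way. Neurog3 had medians of 24.9 and 148 CPM and Pdx1 of 9.84 and 35.6 CPM in the same order, and their part in the hormone values was not tested. Conditions are not equally represented in these sets, and no test was made.

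The list counts that follow are for Ngn3 over the 6 pairs, where 11.1% of all genes were higher and 10.5% lower. Among the receptors for the 8 peptides, 5 of 14 were detected often enough to be tested, 2 rose, and the other 3 could not be called in the averaged fit. Gipr, the receptor for the product of Gip, went from 0.536 ± 0.913 to 7.86 ± 7.18 CPM, a log2 fold change of 4.27 ± 0.82 (adjusted p = 0.00028). Sort1, a sorting receptor that also binds neurotensin, rose by 1.14 ± 0.20 (adjusted p = 8.2e-05). Of 19 genes for peptide processing and granules 14 rose and 1 fell, with a list median of 4.68 against 0.07 for all genes tested. Pcsk1, the convertase of gut hormone precursors, rose by 8.85 ± 0.56, and the granule proteins Chgb by 10.15 ± 0.65, Scg3 by 10.02 ± 0.52 and Resp18 by 10.02 ± 0.53. Dpp4, which inactivates incretins, fell by 2.47 (SE 0.61).

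Of 27 transcription factors of enteroendocrine cells 20 rose and 1 fell. The 20 include Neurog3, whose rise was fixed by the vector and the sort. Neurod1, required for secretin and cholecystokinin cells, rose by 10.33 ± 0.56 and Rfx6, a regulator of gut and islet endocrine cells, by 10.92 ± 0.65. Isl1 rose by 10.54 ± 0.70 and St18 by 10.54 ± 0.68, and the exception was Onecut3. Nutrient-sensing genes showed the same tendency, with 11 of 19 tested higher and 1 lower. The short-chain fatty acid receptor Ffar2 rose from 0.0761 ± 0.143 to 71.0 ± 60.8 CPM. The fatty acid receptor Ffar1 rose by 8.08 ± 1.04 and the calcium-sensing receptor Casr by 8.04 ± 1.00, whereas Slc5a1, the glucose cotransporter SGLT1 by which gut endocrine cells sense sugar, fell by 3.19 (SE 0.64). Other peptide hormone genes rose in 7 of 18 tested and fell in 1. In this list 8 genes could not be called in the averaged fit, and the single-coefficient fit called 11 higher and 1 lower. Ghrl, the ghrelin gene, went from 1.04 ± 0.668 to 1569 ± 1336 CPM and Sst, the somatostatin gene, from 6.33 ± 7.97 to 6764 ± 8255 CPM. Gal and Cartpt rose too, by 7.64 ± 0.86 and 8.31 ± 0.81, and the endothelin gene Edn1 was the one that fell.

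Markers of the cells that the sort could hold were summed for each sample. Duct markers, 12 genes, came to 2730 to 22504 CPM in Ngn3-positive and 17525 to 66098 CPM in Ngn3-negative samples, and 7 fell and none rose with Ngn3, among them Muc1, Krt19 and Spp1. Markers of intestinal epithelium came to 14.1 to 233 CPM with Ngn3 and 80.7 to 358 CPM without it. Of the 8 tested, Lgr5, Vil1 and Cdh17 fell and none rose, and Alpi and Isx had no count in any sample. Cdx2, the defining factor of intestinal epithelium, stayed at 0 to 2.03 CPM in Ngn3-positive and 0 to 5.86 CPM in Ngn3-negative samples. No intestinal marker tested was called higher in the comparisons that add Ngn3, although 1 of the 8 could not be called in the averaged fit. With Pdx1 added to Ngn3-MafA, where Gip was called, 1 of the 8 was higher, Olfm4, named after its value was seen.

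Stomach markers came to 4.92 to 628 CPM and 2.81 to 16.6 CPM in the same order, with Atp4a alone at up to 611 CPM. Atp4a and Tff2 rose, Muc5ac fell, and Gkn1 had no count. Acinar markers came to 2.22 to 49.7 CPM and 0.617 to 17.1 CPM, with Cela1 lower and Amy2a5, Ptf1a and Pnlip without a count. Of 8 genes listed as PP cell markers Ppy, Pyy, Etv1 and Rasgrf1 rose and Tspan8 fell. Vsig1 was called lower at -2.77 ± 0.95, although its mean was 0.997 CPM with Ngn3 and 0.687 CPM without it. Of 8 immune or mesenchyme markers tested over the 6 pairs, 5 could not be called in the averaged fit. The single-coefficient fit called 1 of the 8 higher, and for Ngn3 added to Pdx1 and MafA 1 was higher, Cd79a. Their sum reached 426 CPM in Ngn3-positive samples, with a median of 65.4 CPM, and 107 CPM in Ngn3-negative samples. The 426 CPM, of which Col1a2 made 188, was in WT Ngn3-MafA replicate 1. That sample also held the highest Gip and Pyy of the Ngn3-MafA samples. The part of these cells in the hormone values was not tested.

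Genes whose levels ran most like those of Gip over the 32 samples were Wee2, Sdk2 and Fam151a, with Spearman correlations of 0.87, 0.84 and 0.83. Those most like Pyy were Pax4, Dnajc12 and Rnf138rt1, at 0.82, 0.82 and 0.81, and those most like Cck were Scg2, Cd177 and Cltrn, at 0.80, 0.79 and 0.77. The points share libraries and the contrast between Ngn3-positive and Ngn3-negative cells, so these values are descriptive. The other 5 genes had 10 or more counts in too few samples to be compared in this way.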

How the data were processed

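RNA-seq libraries from pools of 50 sorted cells were made by the authors with a full-length, plate-based protocol, aligned with GSNAP to mm10 (GRCm38) and counted per Ensembl gene (release 81) with HTSeq (0.5.3p3), per the study's methods and the submitters' processing notes; the strand setting is not given in the sources used here. The deposited values are raw counts per gene and library, not normalized. The count table held 46078 genes, of which 45143 matched a symbol, and 92 spike-in sequences. In the median library 13.97% of reads had no feature, 6.48% were ambiguous and 19.83% were not aligned; such rows were left out of totals. The criteria of the study's methods (over 1000000 gene counts, under 25% spike-ins, over 10000 genes detected) kept 58 of 61 libraries, with 1373561 to 9736403 gene counts; the 3 left out had 241563 to 625650. Libraries of one replicate were summed. Members and gene lists were chosen with earlier results of these data known.

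A gene entered the tests with a count in 5 or more libraries and a log2(CPM + 1) variance over 0.001 (24004 genes). The main test was edgeR's (4.0.16) quasi-likelihood test with TMM scaling on 12 group means, 32 samples sharing one estimate of spread; contrasts averaged WT and 6SA cultures, and an adjusted p (Benjamini-Hochberg) under 0.05 was a call. CPM values use TMM-scaled totals (factors 0.70 to 1.18), except for single libraries, which use plain totals. SEs were taken from the F statistic. Intervals and floors cover counting error only. Depth limits Sct, Ppy, Gast, Tac1 and Nts most. Scripts were tested on simulated data. Alternatives were DESeq2 (1.42.0), other scalings and filters, all libraries, single repeats, only the conditions compared, each replicate left out, and the replicate number as a block. After seeing the data, a fit with a single coefficient for all pairs and a fit without 3 samples of little Mafa were added. Named genes were the 8 members, the 3 factors, from each list up to 4 higher and 4 lower with the lowest adjusted p, and the 3 genes most like each member with at least 10 counts in at least 5 samples. A few list genes that this rule names are not reported here.

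Pairing by replicate number was examined through correlations of deviations from group means in the 5000 genes highest in level. Every same-numbered pair exceeded 0.1 in adding Ngn3 to Pdx1 (0.52 to 0.76), adding Ngn3 to MafA (0.23 to 0.44), adding Pdx1 to Ngn3-MafA (0.14 to 0.44) and Ngn3-Pdx1 against Ngn3-MafA (0.16 to 0.63), so blocked values are given there where a call changes; the labels tie replicate 3 to passage 5.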

Additional observations from a re-analysis of the deposited data

Results flagged for a closer look

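The 3 libraries left out by the quality criteria, all from Ngn3-Pdx1-MafA cells, carried hormone reads above the highest level in any Ngn3-negative library. On library totals, Gip stood at 9529 CPM in the left-out library of WT replicate 2, at 2432 CPM in that of 6SA replicate 3 and at 513 CPM in that of 6SA replicate 2, against at most 1.06 CPM in Ngn3-negative libraries. Pyy stood at 141 CPM in the left-out library of 6SA replicate 2 and at 17.6 CPM in that of WT replicate 2, against at most 12.2 CPM. Gast stood at 9.79 CPM in the library of 6SA replicate 3, from 4 counts, against 0. The kept libraries of the same replicates had 1381 CPM of Gip in WT replicate 2 and 34.2 CPM in 6SA replicate 2, and no Pyy count in 6SA replicate 2. Groups held 2 or 3 samples, too few for a check of outlying samples.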

How the results depend on the processing

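Of the fold changes recomputed under alternative settings, 742 kept their side of the threshold, 25 passed only under the alternative, 41 no longer passed and no called value changed sign. The number of hormone genes called changed by over 1.5 times as follows, with the cause not tested. For the Ngn3 effect over 6 pairs it was 3 in place of 5 both with edgeR's newer fit (the legacy setting off) and with the first technical repeat only, and 3 without the 3 samples of little Mafa (chosen after seeing the data). That same choice gave 0 in place of 2 for Ngn3 added to MafA and 2 in place of 5 for Ngn3 added to both. For Ngn3 added to Pdx1 it was 3 with DESeq2, 4 without the gene filter and 2 with the replicate block, in place of 1. For Ngn3 added to MafA it was 1 with the newer fit and 0 with first repeats, in place of 2. For MafA added to Ngn3-Pdx1 it was 1 with the newer fit, 2 without the filter, 1 with all libraries and 1 with the replicate block (Gip, 2.73, adjusted p = 0.040), in place of 0. For Pdx1 added to Ngn3-MafA it was 2 without the filter, in place of 1. For Ngn3-Pdx1 against Ngn3-MafA it was 1 with DESeq2, the newer fit, no filter or the block, in place of 0. For 6SA against WT it was 2 without the filter, in place of 0. Leaving out each replicate gave 0 to 5 for the 6 pairs (3 to 6 with a single coefficient, chosen after seeing the data), 0 to 2 each for Ngn3 added to Pdx1 and to MafA, 1 to 4 for Ngn3 added to both, 0 to 1 for Pdx1 added to Ngn3-MafA and 0 to 1 for Ngn3-Pdx1 against Ngn3-MafA.

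Over all genes, 5168 calls for the 6 pairs became 2008 to 5119 with a replicate left out and 3840 to 6620 under the other alternatives. The same figures were 358, 0 to 687 and 262 to 1273 for Ngn3 added to Pdx1; 1121, 87 to 1100 and 457 to 2123 for Ngn3 added to MafA; 4279, 771 to 3931 and 2693 to 5529 for Ngn3 added to both; 451, 3 to 650 and 55 to 1454 for MafA added; 654, 0 to 1004 and 223 to 2038 for Pdx1 added; and 32, 0 to 33 and 18 to 634 for Ngn3-Pdx1 against Ngn3-MafA. For 6SA against WT and the interaction, 0 calls became up to 239 and 101 without the filter. With the replicate block the counts were 1011 for Ngn3 added to Pdx1, 2123 for Ngn3 added to MafA, 2038 for Pdx1 added and 216 for Ngn3-Pdx1 against Ngn3-MafA. The block changed no member's call besides those named, and not every same-numbered pair deviated together in the 6-pair, MafA-added, 6SA or Ngn3-added-to-both comparisons; for 6SA against WT 7 of 8 pairs did, those of Ngn3-Pdx1 and Ngn3-MafA among them. Depth limits Sct, Ppy, Gast, Tac1 and Nts, which had 178 counts or fewer over the Ngn3-positive samples.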
